A study of Mus musculus with 112 samples.

Results

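The genes described here are 45 genes of mitosis and the G2/M transition, found by symbol among the 32285 genes of a bulk 3′ RNA-seq count table. All 45 were present, and all 45 passed the filter on low counts in every comparison. They were followed in 3 populations sorted from crypts of the proximal small intestine: progenitors, Paneth cells and intestinal stem cells (ISCs). Aged mice were 23 to 27 months old and young mice 2 to 3 months. Every mouse, aged or young, was C57BL/6 with the allele Lgr5-eGFP-IRES-CreERT2, which puts GFP and an inducible Cre under the Lgr5 locus and is known to be expressed in a mosaic pattern. Epcam-high, CD24-low cells were sorted as progenitors at medium to low GFP and as ISCs at high GFP. Paneth cells were Epcam-high, CD24-high, high in side scatter and GFP-negative. There were 10 aged and 10 young progenitor samples, 12 aged and 12 young Paneth samples, and 12 aged and 11 young ISC samples, from males and females. Each sample was 1 named animal, and 36 animal names occur in all.

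Cells enter mitosis when the kinase Cdk1, bound to cyclin B, becomes active. Polo-like kinase and the Aurora kinases then drive spindle assembly and chromosome condensation. The spindle checkpoint holds the cell until every kinetochore is attached. The anaphase-promoting complex with its activator Cdc20 then destroys cyclin B and securin, which frees separase to part the sister chromatids. Transcripts of these proteins build up in G2 and fall away after division, which is why they serve as markers of dividing cells. In the crypt, Lgr5-positive stem cells divide, their early descendants divide further as transit-amplifying progenitors, and Paneth cells are post-mitotic.

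The samples held 2176833 to 11821614 counts. In progenitors and ISCs all 45 genes had counts in every sample, and in Paneth samples 43 to 45 did. The 45 genes took a median of 0.427% of the nuclear-gene counts of aged progenitors and 0.544% of those of young progenitors, 0.224% and 0.302% in aged and young Paneth samples, and 0.79% and 0.829% in aged and young ISCs. The Paneth gate carried the lysozyme gene Lyz1 at 81668 ± 22170 CPM in aged and 58021 ± 19829 CPM in young mice (mean ± SD). Lgr5 averaged 94.3 ± 21.4 CPM in aged and 106 ± 17.5 CPM in young ISCs, against 3.86 ± 3.57 CPM in aged and 4.87 ± 3.55 CPM in young progenitors. The Paneth gate was not free of stem cell transcripts, with Lgr5 at 31.6 ± 19.2 CPM in aged and 47.3 ± 19.9 CPM in young mice. CPM are counts scaled to a common library size, here with TMM factors over all 67 samples. The counts come from transcript 3′ ends and are compared between samples of the same gene, not between genes.

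The promoters of these genes are known for a shared layout. A cell cycle genes homology region (CHR), read as TTTGAA or TTCGAA, lies near the transcription start and is the element contacted by MuvB complexes. CCAAT boxes, the sites of NF-Y, lie upstream of it. RefSeq promoter sequences (GRCm38.p6, 250 bases before to 50 bases after the start) were on hand for 38 of the 45 genes, and not for Incenp, Kif20a, Aurkb, Foxm1, Smc4, Tpx2 and Ccna2. Both motifs were searched on both strands. A CHR match lay in 30 of the 38 windows (78.9%), against 21.7% of 27025 genes with a window. A CCAAT match lay in 28 (73.7%), against 41.1% of all genes. Both were found in 26 (68.4%), against 8.61% of all genes. The CHR matches sat close to the start: 26 of the 38 genes (68.4%) had a match beginning within 50 bases of it, against 6.12% of all genes. A match of letters describes the window and does not show that a factor binds there.

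Stretches of 4 promoters are shown because these genes recur in every comparison and carry the layout in different arrangements. Top2a encodes the topoisomerase that untangles sister DNA, Cdc20 the activator of the anaphase-promoting complex, Cdk1 the mitotic kinase and Mki67 the Ki-67 coat of mitotic chromosomes. Each line gives 200 bases of upstream sequence 5′ to 3′ on the gene's own strand, which is the minus strand in all 4, with CHR matches on either strand in capitals. The Top2a stretch (chr11:99024190-99024389) and the Mki67 stretch (chr7:135716380-135716579) end at the base before the RefSeq start. Those of Cdc20 (chr4:118437353-118437552) and Cdk1 (chr10:69352939-69353138) leave out the last 9 and 26 upstream bases, which an annotated transcript covers.
Top2a: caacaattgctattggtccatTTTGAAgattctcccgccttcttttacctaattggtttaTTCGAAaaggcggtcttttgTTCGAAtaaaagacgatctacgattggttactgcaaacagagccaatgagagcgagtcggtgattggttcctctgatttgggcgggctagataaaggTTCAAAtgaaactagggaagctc
Cdc20: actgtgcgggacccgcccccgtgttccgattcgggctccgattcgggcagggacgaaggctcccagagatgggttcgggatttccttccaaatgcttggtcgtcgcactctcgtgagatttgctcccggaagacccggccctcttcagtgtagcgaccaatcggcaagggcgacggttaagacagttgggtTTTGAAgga
Cdk1: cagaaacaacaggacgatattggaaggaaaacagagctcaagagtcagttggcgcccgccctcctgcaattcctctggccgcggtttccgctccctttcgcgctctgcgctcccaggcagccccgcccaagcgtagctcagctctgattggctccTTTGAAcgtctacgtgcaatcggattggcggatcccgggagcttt
Mki67: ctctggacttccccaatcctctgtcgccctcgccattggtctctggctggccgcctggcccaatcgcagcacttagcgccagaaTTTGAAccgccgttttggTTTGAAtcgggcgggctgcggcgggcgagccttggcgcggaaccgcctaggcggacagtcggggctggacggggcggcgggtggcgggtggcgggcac

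The Top2a stretch held 4 CHR and 5 CCAAT matches, that of Mki67 2 and 3, and that of Cdk1 1 and 3, with 1 of each for Cdc20. In the Top2a and Cdk1 stretches CCAAT matches stand on both sides of a CHR, whereas in that of Mki67 all 3 lie upstream of both CHR matches. Cdk1 has a further CHR match at -15, in the bases left out. It lies nearer the start than the CHR at -71 and than all 3 CCAAT matches, at -208, -80 and -48. In Cdc20 the single CHR begins at -18 from the start, between CCAAT matches at -53 and -8, the last of which lies in the bases left out. The plot of motif positions shows this crowding of CHR matches around the start over all 38 genes.

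**Figure D1:**
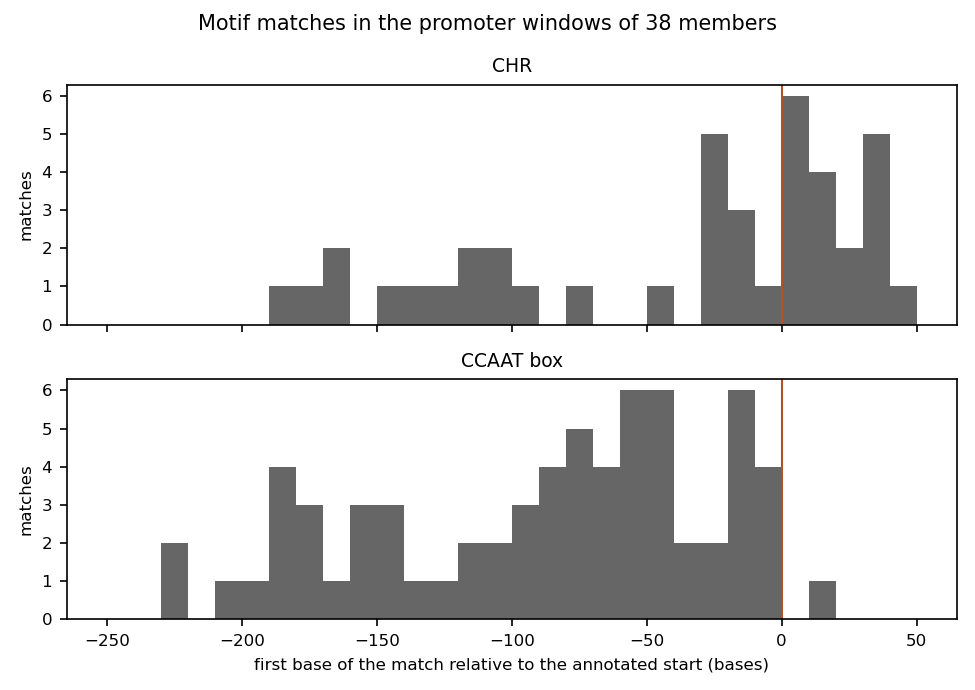
Number of CHR (top) and CCAAT (bottom) matches on either strand, in bins of 10 bases, by the distance of their first base from the annotated start (vertical line) in the windows of 38 members. A gene with more than 1 annotated start enters with each window. CHR matches gather within 50 bases of the start and CCAAT matches lie almost all upstream. The windows reach 250 bases before and 50 after the start, so matches placed anywhere would lie mostly upstream.

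Age was compared first within progenitors, the dividing descendants of the stem cells. Of the 45 genes, 7 fell in aged progenitors at an adjusted p under 0.05: Top2a, Ube2c, Aurka, Ttk, Kif4, Kif23 and Cdc20. None rose. Of all 11812 genes tested, 31 (0.262%) were called lower and 55 (0.466%) higher in the same comparison. The fold change was below 0 for 42 of the 45, against 49.1% of all genes tested, with a median log2 fold change of -0.39 where the median of all genes was 0. At an unadjusted p under 0.05, 39 of the 45 were lower, as were 4.09% of all genes. In a bulk sample, fewer dividing cells and less RNA per dividing cell cannot be told apart.

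The summed level of the 45 genes ran from 2460 through a median of 2838 to 3336 CPM in aged progenitors, and from 3167 through 3562 to 4424 CPM in young progenitors. Only the 2 highest aged samples lay above the lowest young one. The means were 2869 ± 290 CPM in aged and 3668 ± 377 CPM in young progenitors (SD, n = 10 each).

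**Figure D2:**
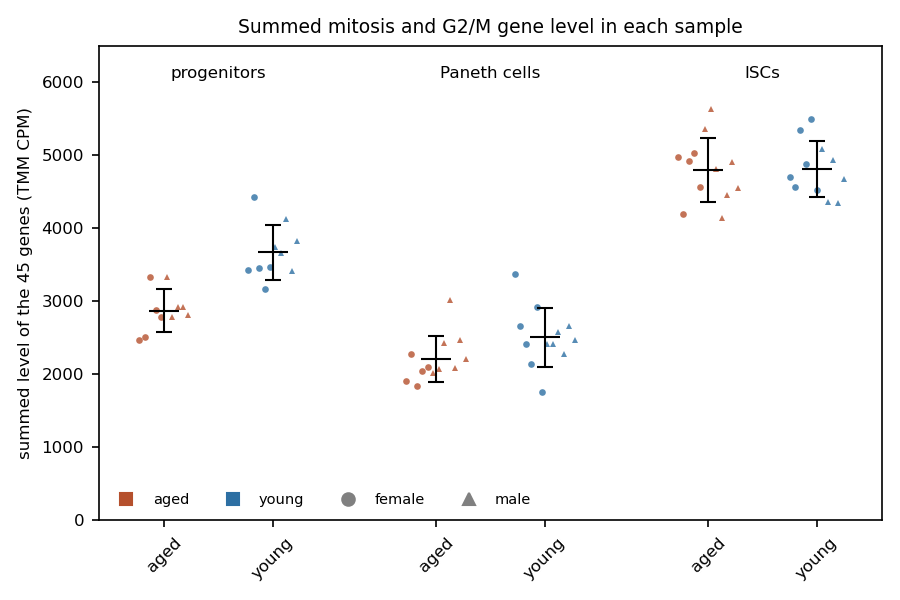
Summed level of the 45 genes (TMM CPM, vertical axis from 0) in every sample of aged and young progenitors, Paneth cells and ISCs. Circles are females, triangles males, and bars mean ± SD. Aged progenitors average 2869 CPM beside 3668 CPM in young ones, while aged and young ISCs average 4793 and 4808 CPM.

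Top2a (chromosome 11, 98992943 to 99024189, GRCm38) had 92.7, 118 and 135 CPM as the lowest, median and highest value in aged progenitors, against 125, 184 and 237 CPM in young ones. Its log2 fold change was -0.60 ± 0.11 (estimate ± SE, edgeR quasi-likelihood test, adjusted p = 0.00199, n = 10 each). Of the 10 aged samples, 8 lay below every young one. Ube2c, the ubiquitin-conjugating enzyme of the anaphase-promoting complex (chromosome 2, 164769898 to 164778822), had 146, 205 and 291 CPM in aged progenitors, against 265, 299 and 350 CPM in young ones. It fell by 0.52 ± 0.097 on the log2 scale (edgeR adjusted p = 0.00304), and 9 of 10 aged samples lay below every young one. Cdc20 (chromosome 4, 118432901 to 118437352), which that complex needs to recognise cyclin B and securin, had 60.7, 85 and 89.7 CPM in aged progenitors, against 88.3, 101 and 122 CPM in young ones. All 10 aged values lay below the young median, with a log2 fold change of -0.41 ± 0.10 (edgeR adjusted p = 0.0464).

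Ttk showed the largest fold change among the 7. It encodes the checkpoint kinase Mps1 (chromosome 9, 83834689 to 83872389) and had 7.66, 13.5 and 21.6 CPM in aged progenitors, against 18.9, 24.5 and 30.4 CPM in young ones. Only 1 aged sample reached the young range, and the log2 fold change was -0.90 ± 0.18 (edgeR adjusted p = 0.00777). Aurka, the Aurora kinase of the spindle poles (chromosome 2, 172356190 to 172370535), had 32.4, 49.1 and 77.5 CPM in aged progenitors, against 58.1, 76.1 and 99.5 CPM in young ones. It fell by 0.58 ± 0.12 (log2, edgeR adjusted p = 0.00638). The chromosome-bound kinesin Kif4 (chromosome X, 100625737 to 100727214) had 23.4, 34.6 and 58 CPM in aged progenitors, against 39.6, 51.2 and 73.8 CPM in young ones, and its log2 fold change was -0.61 ± 0.15 (edgeR adjusted p = 0.0345). Kif23, a kinesin of the central spindle and midbody (chromosome 9, 61915905 to 61946774), had 30.1, 44.4 and 61.5 CPM in aged progenitors, against 53.1, 62.9 and 87.2 CPM in young ones. It fell by 0.50 ± 0.12 (log2, edgeR adjusted p = 0.0398), and 8 of 10 aged samples of both kinesins lay below every young one. The ranges of aged and young progenitors overlapped for every one of the 45 genes. Over all genes tested, 3 (0.0254%) had every aged sample below every young one.

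The promoters of these 7 genes all held both a CHR and a CCAAT match, as did 26 of the 38 members with a window (68.4%) and 8.61% of all genes. The layout is thus common among the members and not particular to the genes called with age. The CHR match of each that lies nearest the annotated start is printed here within 30 bases, 5′ to 3′ on the gene's strand and with the match in capitals, because its place relative to the start differs between them. RefSeq on GRCm38.p6 is the source, and the strand follows each position.
Top2a, chr11:99024195-99024224, minus: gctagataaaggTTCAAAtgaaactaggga
Ube2c, chr2:164769888-164769917, plus: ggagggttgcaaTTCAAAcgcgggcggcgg
Cdc20, chr4:118437344-118437373, minus: agacagttgggtTTTGAAggagccaatgaa
Kif23, chr9:61946780-61946809, minus: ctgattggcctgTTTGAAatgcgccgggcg
Ttk, chr9:83834684-83834713, plus: cagcggggaaatTTCAAAcgtgtttccgga
Kif4, chrX:100626072-100626101, plus: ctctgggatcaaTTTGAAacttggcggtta
Aurka, chr2:172370521-172370550, minus: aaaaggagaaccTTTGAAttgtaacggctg

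Counted from the RefSeq start, the match began at -29 in Ube2c, -23 in Top2a and -18 in Cdc20. It began at 3 in Kif23, 8 in Ttk, 20 in Kif4 and 33 in Aurka, past the RefSeq start. By the gene coordinates given above, the Ube2c match lies inside the gene, and those of Kif23 and Aurka begin upstream of it. For these genes the side of the start thus depends on the annotation.

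Negative fold changes were found at every step of mitosis. All 6 mitotic kinesins, all 7 spindle assembly genes, all 6 chromosome structure genes, all 5 checkpoint genes and all 4 members of the chromosomal passenger complex had fold changes below 0 in aged progenitors. Their median log2 fold changes were -0.49, -0.46, -0.47, -0.37 and -0.33. Of the 5 genes grouped as ubiquitin ligases and separase, which include securin, 4 were below 0, with Espl1 (separase) at -0.56 ± 0.17 (edgeR adjusted p = 0.167). The exception was Pttg1, which encodes securin, at 0.01 ± 0.17 (edgeR adjusted p = 0.991). Of 6 cyclin and mitotic entry genes 5 were below 0, with Cdk1 at -0.41 ± 0.12 and Plk1 at -0.37 ± 0.12 (edgeR adjusted p = 0.128 and 0.196). Cyclin B2, encoded by Ccnb2, stood at 0.06 ± 0.096 (edgeR adjusted p = 0.924), whereas the cyclin B1 gene Ccnb1 stood at -0.26 ± 0.12 (edgeR adjusted p = 0.523). Of 6 centromere and kinetochore genes 5 were below 0, the other being the kinetochore scaffold Knl1 at 0.06 ± 0.38 (edgeR adjusted p = 0.983).

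Several familiar proliferation genes missed the threshold. The microtubule bundler Prc1, the condensin subunit Ncapd2 and the passenger scaffold Incenp came closest, with log2 fold changes of -0.65 ± 0.16, -0.44 ± 0.11 and -0.43 ± 0.11 (edgeR adjusted p = 0.0535, 0.057 and 0.0579). Mki67 had 136, 163 and 238 CPM in aged progenitors, against 142, 215 and 285 CPM in young ones, with 9 of 10 aged samples below the young median. Its log2 fold change was -0.39 ± 0.11 (edgeR adjusted p = 0.123). Cdk1 had 38.5, 73 and 97.6 CPM in aged progenitors, against 77, 95.3 and 115 CPM in young ones. The ranges of both genes overlapped.

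Plk1, which opens centrosome maturation and cyclin B activation, had 51, 94.8 and 133 CPM in aged progenitors, against 103, 122 and 171 CPM in young ones. Aurkb, the kinase of the passenger complex, had 62, 120 and 155 CPM in aged progenitors, against 109, 136 and 198 CPM in young ones (log2 -0.31 ± 0.12, edgeR adjusted p = 0.39). Ccnb1 had 40.9, 58.3 and 71.9 CPM in aged progenitors, against 53.3, 67.5 and 92.9 CPM in young ones. The median was lower in aged progenitors for all 3 genes, the ranges overlapped and none passed the test. Foxm1, a transcription factor that drives G2/M genes, had 11.1, 21 and 48.4 CPM in aged progenitors, against 16.8, 25.1 and 37.4 CPM in young ones, and its log2 fold change was -0.21 ± 0.20 (edgeR adjusted p = 0.834). Its highest value over both ages came from an aged animal.

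**Figure D3:**
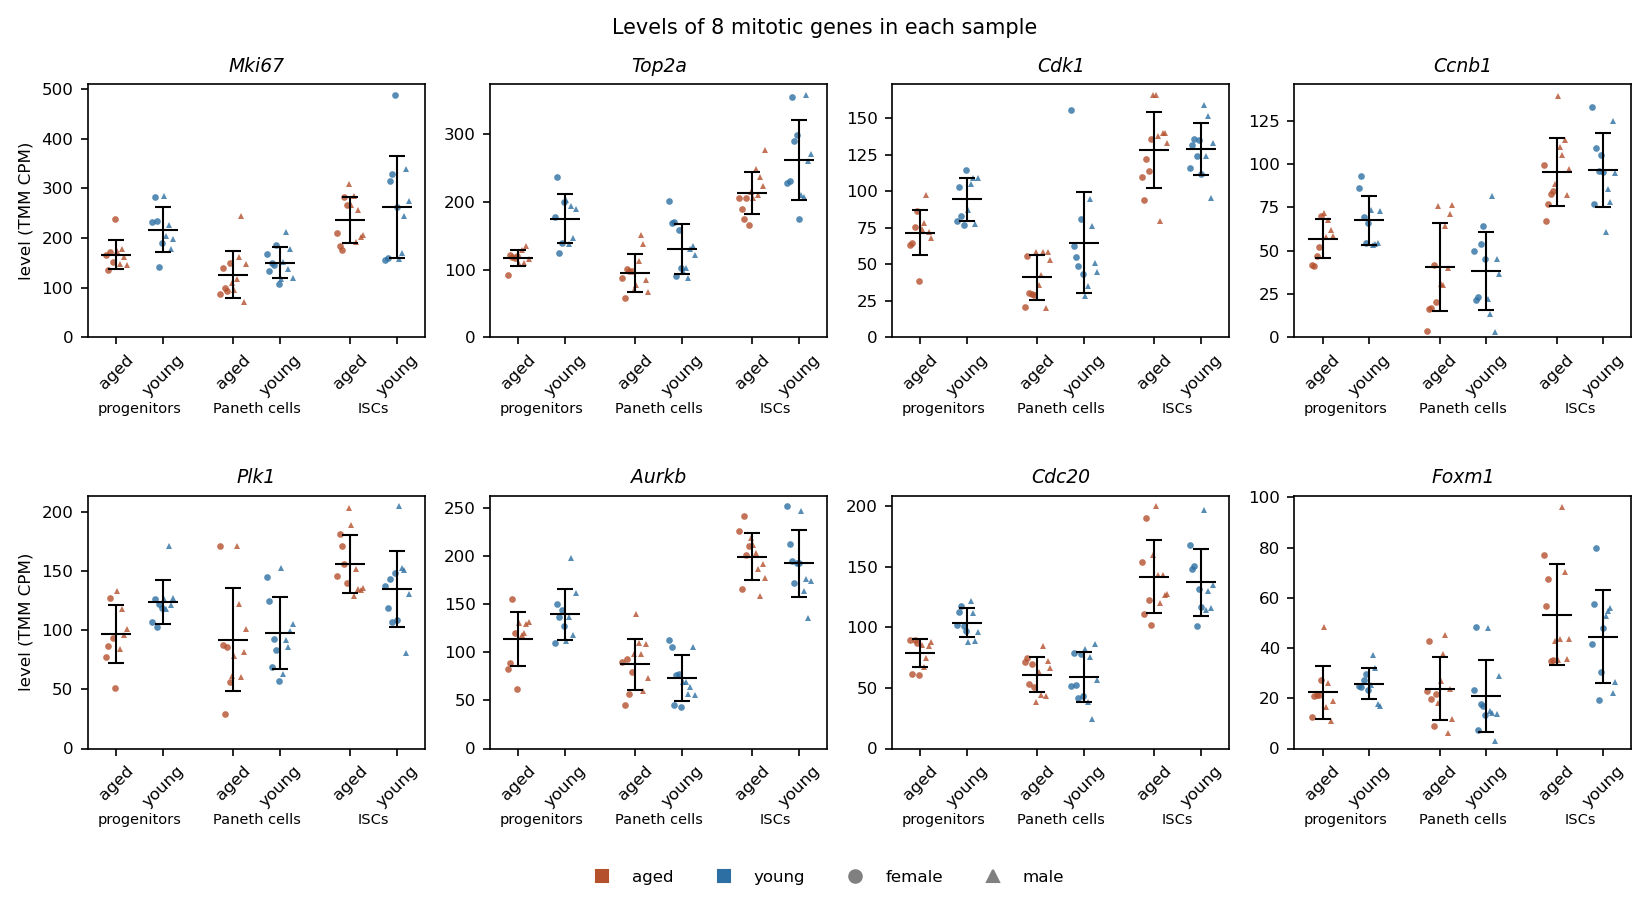
Levels (TMM CPM, vertical axes from 0) of Mki67, Top2a, Cdk1, Ccnb1, Plk1, Aurkb, Cdc20 and Foxm1 in every sample of aged and young progenitors, Paneth cells and ISCs. Circles are females, triangles males, and bars mean ± SD. Top2a has 92.7 to 135 CPM in aged progenitors beside 125 to 237 CPM in young ones.

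The sexes were also compared apart, as contrasts within the same fit that share its estimate of spread. In aged males the median log2 fold change of the 45 genes was -0.37 with 40 below 0, and in aged females -0.42 with 44 below 0. Within males only Aurka passed (-0.88, edgeR adjusted p = 0.0112), beside 10 of all genes called lower (0.0847%). Within females none passed by edgeR, beside 2 of all genes called lower (0.0169%). No gene of the 45 passed the edgeR test of a difference between the sexes, nor did any other gene (0%).

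The number of the 45 genes called in aged progenitors changed when samples were left out. Without aged female replicate 4, young female replicate 1, young female replicate 2 or young male replicate 3 there were 4 calls in place of 7, and without aged female replicate 3 there were 11. Top2a, Ube2c, Aurka and Ttk passed without any 1 sample, whereas Cdc20, Kif23 and Kif4 lost the call in 15, 13 and 10 of 20 such fits. Without the 3 aged progenitor samples of 26 and 27 months, which leaves 7, 2 genes passed, Ube2c and Prc1, and the median log2 fold change was -0.44. Over all genes that fit gave 34 calls in either direction, against 55 higher and 31 lower with all samples. The 3 samples left out were all male. The oldest age, the balance of the sexes and the smaller number of samples cannot be told apart in that count. On the opposite strand Elovl1 overlaps Cdc20, Pdzd11 Kif4, Exosc9 Ccna2, Cdc23 Kif20a, Rccd1 Prc1, Tmem129 Tacc3, Oip5 Nusap1, Lcorl Ncapg, Fgfr2 Bub3, 9930104L06Rik Cdca8 and Tnnc2 Ube2c. The sources used here do not give whether the counting used strand, so the values of these members in every comparison are uncertain, least for Ube2c, whose neighbour had 158 counts in all beside 100720.

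Markers of other cell types were summed in the same samples. The summed level of 10 enteroendocrine markers ran from 241 to 1086 CPM in aged and from 82.4 to 327 CPM in young progenitors, and 2 of the 9 tested were called higher (0.466% of all genes). Chga averaged 87.1 ± 50.8 CPM in aged and 33.2 ± 15.6 CPM in young progenitors. For 8 stromal and endothelial markers the sum ran from 8.25 to 79.4 CPM in aged and from 3.36 to 17.7 CPM in young progenitors, with Col1a1 at 0 in 9 of 10 samples of each, and the 1 of the 8 that could be tested was not called. Sums of 11 enterocyte markers ran from 502 to 1938 CPM in aged and from 521 to 944 CPM in young progenitors. ISC markers, 11 genes, summed to 753 to 1924 CPM in aged and 1046 to 1846 CPM in young progenitors. None of the tested ISC, enterocyte, goblet, Paneth, tuft or immune markers passed in either direction. The part of these cells in the lower mitotic levels was not tested.

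In ISCs none of the 45 genes passed for age by edgeR, DESeq2 or limma-voom. Of 11958 genes edgeR called 34 higher (0.284%) and 8 lower (0.0669%). DESeq2 called 106 and limma-voom 45 of all genes in either direction. Below 0 were 30 of the 45 (50.3% of all genes), with a median log2 fold change of -0.06. The median was 0.03 in males, with 21 below 0, and -0.12 in females, with 32 below 0. The summed level ran from 4142 through 4853 to 5628 CPM in aged and from 4342 through 4704 to 5493 CPM in young ISCs. The means were 4793 ± 442 CPM and 4808 ± 381 CPM (SD, n = 12 aged and 11 young). The 2 ages covered the same range.

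Top2a came nearest to a call in ISCs. It had 166, 208 and 276 CPM in aged ISCs, against 174, 260 and 358 CPM in young ones, and 11 of 12 aged samples lay below the young median. The log2 fold change was -0.35 ± 0.10 (edgeR adjusted p = 0.174). The condensin subunit Ncapg had the fold change furthest from 0, -0.46 ± 0.18 (edgeR adjusted p = 0.386). Mki67 had 175, 233 and 308 CPM in aged ISCs, against 155, 263 and 488 CPM in young ones (log2 -0.18 ± 0.18, edgeR adjusted p = 0.86). Cdk1 had 79.5, 135 and 166 CPM in aged ISCs, against 95.5, 132.5 and 159 CPM in young ones. Neither gene separated the ages.

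Of the 6 cyclin and mitotic entry genes 2 were below 0 in ISCs, with a median log2 fold change of 0.13. Plk1 had 129, 149 and 202.6 CPM in aged ISCs, against 80.8, 137 and 205 CPM in young ones (log2 0.18 ± 0.11, edgeR adjusted p = 0.693). Foxm1 had 35, 43.6 and 96 CPM in aged ISCs, against 19.2, 47.9 and 80 CPM in young ones (log2 0.25 ± 0.22, edgeR adjusted p = 0.837). Neither difference passed. Aurkb had 158, 202 and 241 CPM in aged ISCs, against 135, 193 and 252 CPM in young ones. Cdc20 had 102, 135 and 200 CPM in aged ISCs, against 101, 131.9 and 196.9 CPM in young ones. Ccnb1 had 66.8, 92.8 and 139 CPM in aged ISCs, against 60.7, 95.4 and 133 CPM in young ones. These 3 genes had log2 fold changes of 0.05 ± 0.093, 0.01 ± 0.11 and -0.06 ± 0.12.

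In Paneth samples no gene of the 45 passed for age by edgeR, DESeq2 or limma-voom. Of 11663 genes edgeR called 7 higher (0.06%) and 1 lower (0.00857%). DESeq2 called 29 and limma-voom 14 of all genes in either direction. Below 0 were 34 of the 45 (49.2% of all genes), with a median log2 fold change of -0.30. The median was -0.16 in males and -0.37 in females. With no scaling it was -0.10 where the median of all genes was 0.24. Relative to all genes that is -0.33, beside -0.31 in the main fit. When only the first technical library of each animal was used, it was -0.08 over 43 genes, or -0.12 relative to all genes. The spread between animals was wide, with a median SE of 0.28 for a fold change, against 0.14 in progenitors and 0.12 in ISCs. Summed levels ran from 1843 through 2092 to 3020 CPM in aged and from 1748 through 2440 to 3377 CPM in young Paneth samples. They overlapped over most of their range.

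Cdk1 had the smallest p in Paneth samples. It had 20, 39.5 and 58.7 CPM in aged mice, against 28.3, 53.1 and 156 CPM in young ones, with a log2 fold change of -0.72 ± 0.25 (edgeR adjusted p = 0.422). Top2a followed with 57.4 to 151 CPM (mean 95.2 ± 28.2) in aged mice, against 87.8 to 201 CPM (mean 130 ± 37) in young ones (log2 -0.48 ± 0.17, edgeR adjusted p = 0.447). Neither passed. Mki67 had 70.9, 113 and 245 CPM in aged mice, against 108.1, 148 and 211 CPM in young ones. Knl1 had the largest estimate, 1.57 ± 1.1 (edgeR adjusted p = 0.848), on levels with a median of 0.807 CPM in aged mice and 0 in young ones.

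**Figure D4:**
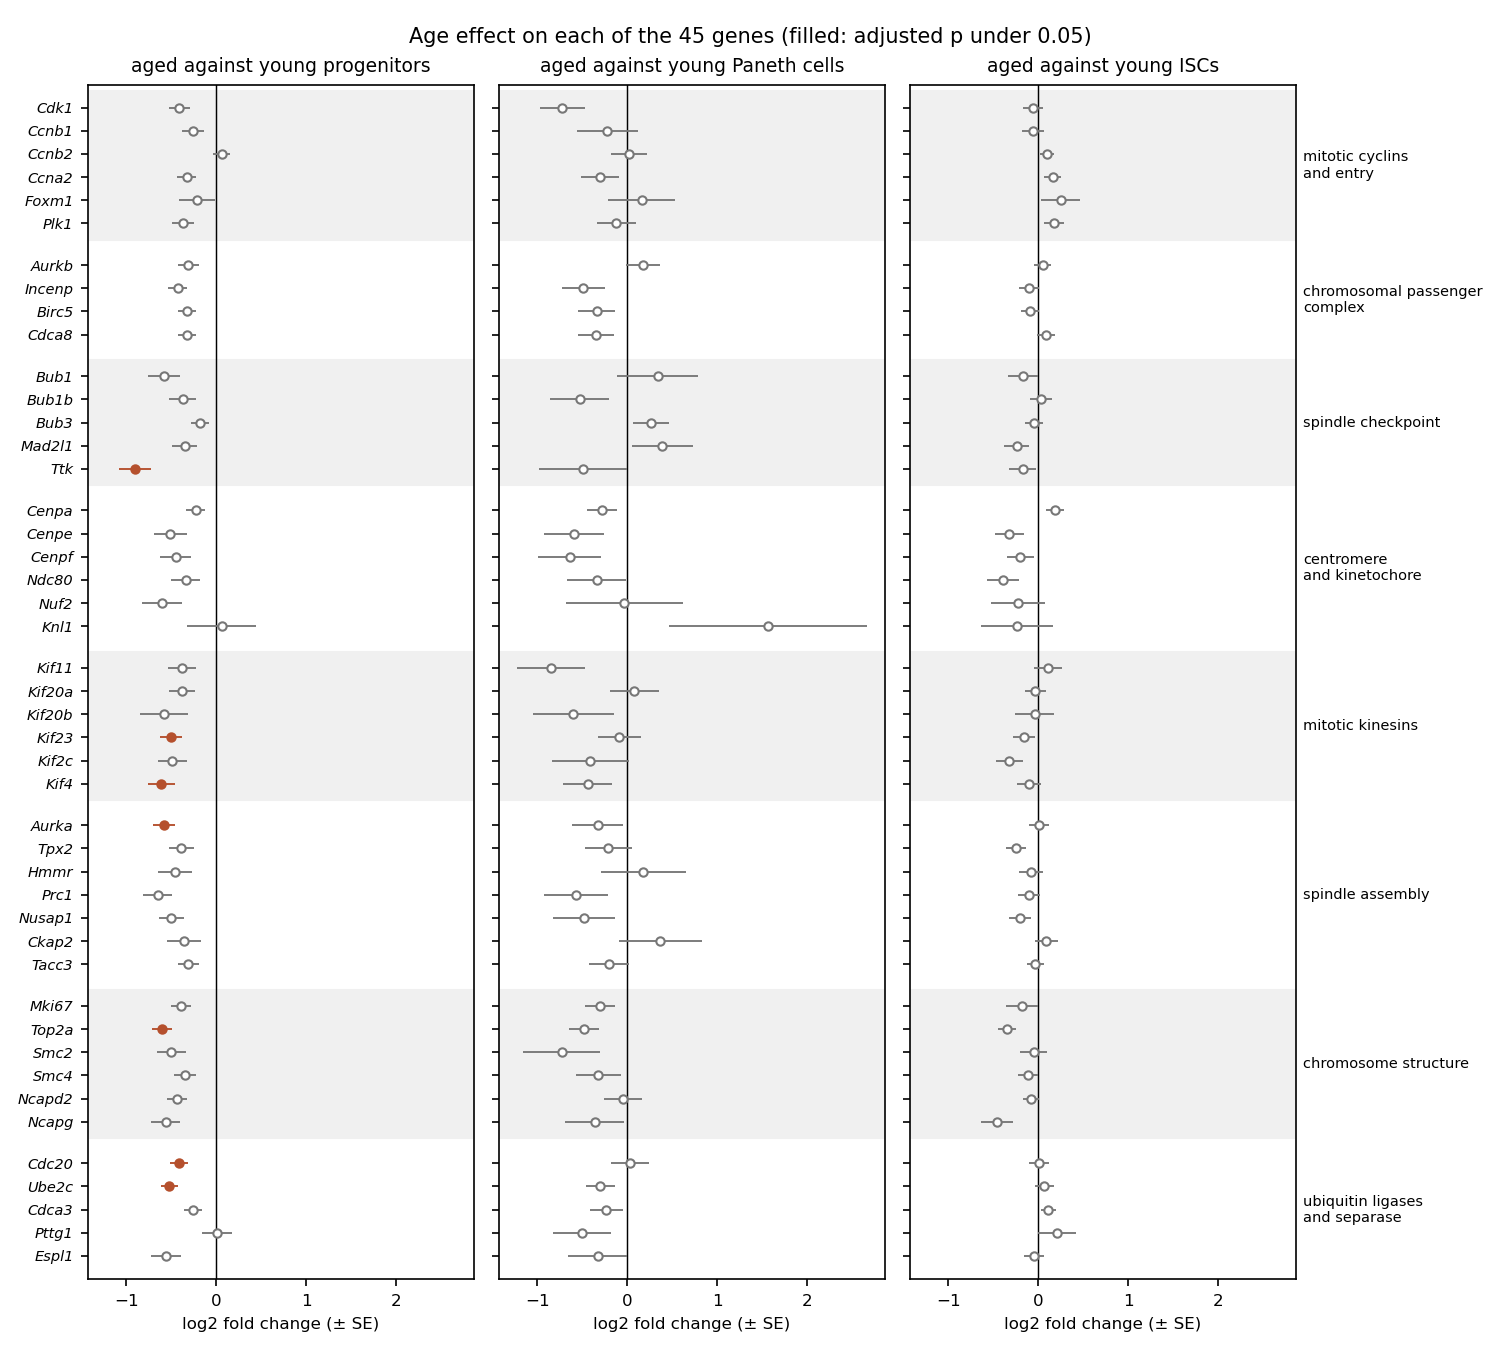
Log2 fold change (± SE) of aged against young samples for each of the 45 genes, by role, in progenitors, Paneth cells and ISCs. Filled points passed an adjusted p of 0.05. Of the progenitor points 42 lie below 0 and 7 are filled, and no point is filled in Paneth cells or ISCs.

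Whether age acted differently between cell types was tested directly. The age effect in progenitors minus that in ISCs was below 0 for 43 of the 45 genes (52.2% of all genes), with a median of -0.37. No gene of the 45 passed by edgeR, DESeq2 or limma-voom. Of 13287 genes edgeR called 1 lower (0.00753%), and DESeq2 and limma-voom called 4 and 1 in either direction. At an unadjusted p under 0.05 there were 8 of the 45 below 0, against 1.19% of all genes. Ube2c had the smallest p, with a difference of -0.60 ± 0.18 (edgeR adjusted p = 0.839). The calls in progenitors and their absence in ISCs were thus not shown to differ gene by gene. The age effect in Paneth samples minus that in ISCs gave 0 calls among the 45 by edgeR, beside 4 of all genes called lower (0.0301%). Paneth samples minus progenitors gave 0 calls by edgeR, beside 0% of all genes. DESeq2 and limma-voom gave 0 among the 45 in both. Over all genes DESeq2 made 32 calls in either direction against ISCs and 17 against progenitors. For limma-voom these were 6 and 0.

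The cell types were then compared at each age. Progenitors had lower levels of mitotic genes than ISCs in aged and in young mice. In aged mice 36 of the 45 were called lower (10.5% of 12491 genes) and all 45 were below 0 (52.3% of all genes), with a median log2 fold change of -0.80. In young mice 20 were called lower (11.2% of 12376 genes) and 43 were below 0 (53.6% of all genes), with a median of -0.48. None of the 45 was called higher at either age (14% of all genes in aged and 13.1% in young mice). All 20 genes called in young mice were also called in aged mice, and 16 more were called in aged mice alone. The aged and young contrasts rest on the same samples as the age comparisons above, so the values are given side by side and the larger number in aged mice is not a separate result.

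**Figure D5:**
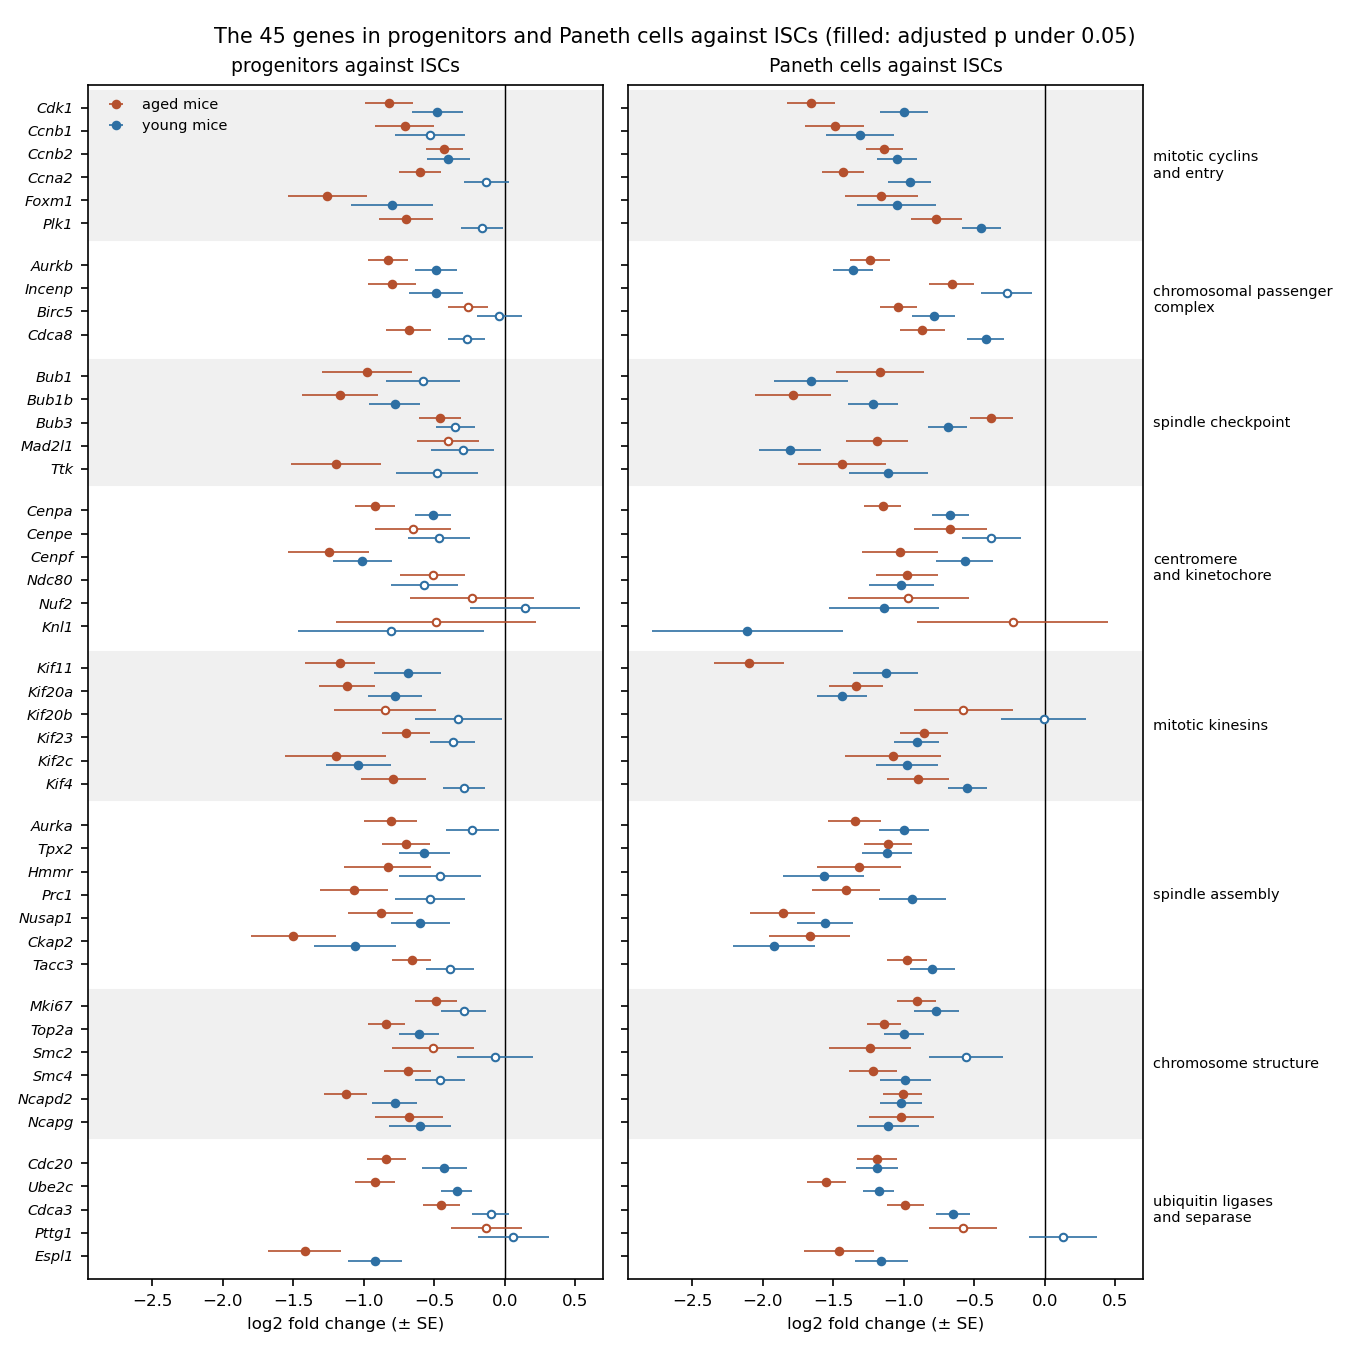
Log2 fold change (± SE) of each of the 45 genes in progenitors (left) and Paneth cells (right) against ISCs, in aged and in young mice, by role. Filled points passed an adjusted p of 0.05. Progenitors had 36 calls in aged and 20 in young mice, and Paneth cells 41 and 40.

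Ncapd2, a condensin subunit, had the smallest p in progenitors against ISCs at both ages. It had 56.4, 67.9 and 86 CPM in aged progenitors, against 116.1, 150 and 176 CPM in aged ISCs (log2 -1.13 ± 0.15, edgeR adjusted p = 7.04e-08). In young mice it had 75.1, 89.9 and 127 CPM in progenitors, against 122, 159 and 188 CPM in ISCs (log2 -0.78 ± 0.16, edgeR adjusted p = 0.000166). Aged progenitors lay wholly below aged ISCs, and the young ranges overlapped. Espl1, the protease that cuts cohesin, had 14.9, 25.7 and 34.8 CPM in aged progenitors, against 51.4, 61.7 and 84.4 CPM in aged ISCs (log2 -1.42 ± 0.26, edgeR adjusted p = 3.62e-05). In young mice it had 23.4, 34.8 and 49 CPM in progenitors, against 54.4, 68.1 and 77.2 CPM in ISCs (log2 -0.92 ± 0.19, edgeR adjusted p = 0.000247). Espl1 was the only member whose progenitor samples all lay below all ISC samples at both ages.

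In aged mice 10 of the 45 genes had every progenitor sample below every ISC sample, where 201 of all genes (1.61%) did: Aurkb, Bub1b, Cenpf, Kif20a, Nusap1, Ckap2, Top2a, Ncapd2, Cdc20 and Espl1. In young mice Espl1 alone did, where 247 of all genes (2%) did. Ckap2, a microtubule stabiliser of the spindle, had the largest fold change in both, -1.50 ± 0.30 in aged mice (edgeR adjusted p = 0.000108) and -1.06 ± 0.29 in young mice (edgeR adjusted p = 0.00544). Top2a stood at -0.84 ± 0.13 in aged and -0.61 ± 0.14 in young mice (edgeR adjusted p = 1.33e-06 and 0.000832). Foxm1 stood at -1.26 ± 0.28 in aged and -0.80 ± 0.29 in young mice (edgeR adjusted p = 0.000443 and 0.036).

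Other genes were called in aged mice alone. Plk1 stood at -0.70 ± 0.19 in aged and -0.16 ± 0.15 in young mice (edgeR adjusted p = 0.00441 and 0.48). Aurka stood at -0.81 ± 0.19 in aged and -0.23 ± 0.19 in young mice (edgeR adjusted p = 0.00102 and 0.419). The cyclin A2 gene Ccna2, which acts in S phase and G2, stood at -0.60 ± 0.15 in aged and -0.13 ± 0.16 in young mice (edgeR adjusted p = 0.00192 and 0.614). Mki67 stood at -0.49 ± 0.15 in aged and -0.29 ± 0.16 in young mice (edgeR adjusted p = 0.0114 and 0.208). Birc5, which encodes survivin of the passenger complex, was among the 9 genes without a call in aged mice, at -0.26 ± 0.14 (edgeR adjusted p = 0.174), and stood at -0.04 ± 0.16 in young mice (edgeR adjusted p = 0.89). The others without a call in aged mice were Cenpe, Kif20b, Knl1, Mad2l1, Ndc80, Nuf2, Pttg1 and Smc2.

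Some animals gave both populations, 5 young and 5 aged. With the animal as a block the young comparison gave 9 calls in place of 20, with a median log2 fold change of -0.42, and Foxm1 stood at 0.13 (edgeR adjusted p = 0.871). Over all genes the block gave 1617 calls in either direction, against 1621 higher and 1385 lower without it. In limma-voom the young comparison gave 29 calls both with and without the animal as a random effect, beside 4200 and 4110 of all genes. In aged mice the block gave 26 calls in place of 36. There it gave 1798 calls over all genes, against 1743 higher and 1308 lower without it.

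Paneth samples had the lowest summed levels. Against ISCs, 41 of the 45 genes were called lower in aged mice (11.7% of 12491 genes) and 40 in young mice (12.8% of 12376 genes), 38 of them at both ages. None was called higher (16.9% of all genes in aged and 17.6% in young mice). Median log2 fold changes were -1.14 in aged and -1.0 in young mice. Every role contributed: all 7 spindle assembly genes, all 6 cyclin and entry genes and all 5 checkpoint genes were called at both ages.

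Ube2c had the smallest p in both. It had 80.6, 133 and 233 CPM in aged Paneth samples, against 278, 393 and 559 CPM in aged ISCs (log2 -1.55 ± 0.14, edgeR adjusted p = 8.22e-13). In young mice it had 113, 163 and 204 CPM in Paneth samples, against 282, 388.6 and 492 CPM in ISCs (log2 -1.18 ± 0.11, edgeR adjusted p = 3.56e-12). No Paneth sample reached the ISC range. Cdk1 stood at -1.66 ± 0.17 in aged and -1.0 ± 0.17 in young mice (edgeR adjusted p = 3.73e-11 and 1.02e-05). Aurkb had 45, 91.5 and 140 CPM in aged and 43.1, 68.7 and 113 CPM in young Paneth samples, all below the ISC samples of their age, with log2 fold changes of -1.24 ± 0.14 and -1.36 ± 0.14 (edgeR adjusted p = 7.43e-10 and 1.49e-10). The cyclin A2 gene Ccna2 stood at -1.43 ± 0.15 in aged and -0.96 ± 0.15 in young mice (edgeR adjusted p = 6.14e-11 and 1.55e-06).

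The largest fold changes differed with age. In aged mice they were those of the bipolar spindle kinesin Kif11 (-2.10 ± 0.25), Nusap1 (-1.86 ± 0.23), Bub1b (-1.79 ± 0.27) and Ckap2 (-1.67 ± 0.29). In young mice they were those of Knl1 (-2.11 ± 0.68), Ckap2 (-1.92 ± 0.29), the checkpoint protein gene Mad2l1 (-1.81 ± 0.22) and the checkpoint kinase gene Bub1 (-1.66 ± 0.26). No gene of the 45 passed the direct test of the age effect between Paneth samples and ISCs, given above. Every Paneth sample lay below every ISC sample for 14 of the 45 genes in aged mice (0.44% of all genes) and for 8 in young mice (0.493% of all genes). Ccnb2, Aurkb, Kif20a, Nusap1, Cdc20 and Ube2c did so at both ages.

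Mitotic transcripts were not absent from the Paneth gate. Mki67 averaged 126.4 ± 46.8 CPM in aged and 150 ± 30.7 CPM in young Paneth samples, against 236 ± 46.1 and 263 ± 103 CPM in aged and young ISCs. Plk1 had 28.9, 83.9 and 171 CPM in aged and 57.3, 92 and 153 CPM in young Paneth samples, and overlapped with ISCs (log2 -0.77 ± 0.18 and -0.45 ± 0.14, edgeR adjusted p = 0.000961 and 0.0134). Pttg1 and the late mitotic kinesin gene Kif20b had no call against ISCs at either age. The 11 ISC markers, Lgr5 and Olfm4 among them, summed to 2048 to 5639 CPM in aged and 1713 to 5206 CPM in young Paneth samples, against 8134 to 12925 and 7028 to 12137 CPM in aged and young ISCs. Markers of other cell types were found in the Paneth gate as well. Summed goblet markers averaged 7384 CPM in aged and 6213 CPM in young Paneth samples, and enterocyte markers 2092 and 1739 CPM. Enteroendocrine markers averaged 1876 and 1400 CPM, and tuft markers 497.5 and 629.7 CPM. Mitochondrially encoded genes took a median of 55% of counts in aged and 61.4% in young Paneth samples. The part of any of these in the mitotic levels was not tested.

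Against progenitors, Paneth samples were lower in 14 of the 45 genes in aged mice (10.7% of all genes) and in 22 in young mice (11.5% of all genes), and higher in none (13.3% and 16% of all genes). The median log2 fold changes were -0.34 in aged and -0.51 in young mice. In aged mice Birc5, Ccna2, Ccnb2 and Cdk1 had the smallest p (-0.78 ± 0.14, -0.84 ± 0.15, -0.71 ± 0.13 and -0.85 ± 0.17, highest edgeR adjusted p = 0.000145). In young mice Ube2c, Mad2l1, Aurkb and Ccna2 did (-0.84 ± 0.11, -1.51 ± 0.22, -0.87 ± 0.14 and -0.84 ± 0.15, highest edgeR adjusted p = 3.64e-05). Cdc20, Mad2l1 and Ube2c had every young Paneth sample below every young progenitor sample (1.38% of all genes), and no gene of the 45 did so in aged mice (0.672% of all genes). These counts depend on TMM: with library totals and no scaling, the median of all genes fell by 1.45 (aged) and 1.71 (young) on the log2 scale, and 44 and 45 of the 45 genes were called lower. Relative to that shift the medians of the 45 genes were -0.36 and -0.54.

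Further cell cycle lists, chosen with earlier results of these data known, were set beside the 45 genes. Of 61 other G2/M genes all 61 were below 0 in aged progenitors (49.1% of all genes), with a median log2 fold change of -0.33. Among them 2 were called lower (0.262% of all genes). They were Arhgap11a (-0.66 ± 0.15, edgeR adjusted p = 0.0191) and the Cdk1-activating phosphatase gene Cdc25b (-0.70 ± 0.18, edgeR adjusted p = 0.048). Of 50 S phase genes 46 were below 0 (49.1% of all genes), with a median of -0.21. Here 1 was called lower (0.262% of all genes), the replication helicase gene Cdc45 (-0.51 ± 0.12, edgeR adjusted p = 0.0281). No member passed among 15 subunits and partners of the anaphase-promoting complex (median -0.03), 16 G1 cyclin and E2F genes (median -0.06), 10 cohesin genes (median -0.21) or the 14 measured CDK inhibitors and RB family genes (median -0.06). In ISCs no gene of any of these lists passed for age. Against ISCs, aged progenitors had lower levels in 31 of the 61 other G2/M genes and in 9 of 50 S phase genes, beside 10.5% of all genes, and young progenitors in 16 and 8, beside 11.2% of all genes. Of 15 CDK inhibitor and RB family genes tested between aged progenitors and aged ISCs, 10 were below 0 (median -0.33). There 3 were called higher (14% of all genes) and 0 lower. In young mice 9 of 14 were below 0 (median -0.18), with 3 called higher (13.1% of all genes) and 0 lower. Among those higher in aged progenitors were the CDK inhibitor genes Cdkn1a (log2 2.43 ± 0.37, edgeR adjusted p = 6.4e-06) and Cdkn2b (4.37 ± 0.58, edgeR adjusted p = 9.42e-07). In young mice Cdkn1a and Cdkn2b stood at 3.02 ± 0.36 and 5.19 ± 0.48 (edgeR adjusted p = 3.49e-08 and 6.27e-10).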

How the data were processed

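Gene counts were deposited by the authors as whole numbers, 1 column per library, from SC3-seq, a 3′ end RNA-seq method for small RNA inputs. The submitters' processing notes name cutadapt 3.0, STAR 2.7.9a, HTSeq 0.13.5, DESeq2 1.30.1 and mm10. The sources used here give neither the annotation release nor the strand use. The 69 Paneth libraries were 2 to 3 technical libraries per animal and were summed per animal, which left 67 samples. Genes were filtered with filterByExpr (minimum count 10), scaled by TMM and tested with edgeR 4.0.16 (quasi-likelihood, robust) in R 4.3.3, with Benjamini-Hochberg adjustment over all genes and a threshold of 0.05. Age was fitted within each cell type as the mean over sexes, cell types within each age, and differences in age effects over all samples. DESeq2 1.42.0 and limma 3.58.1 were alternatives. The fits were tested on simulated data. Samples that shared a title number did not deviate together (median r 0.0234 for ISCs, -0.00101 for progenitors, 0.006 for Paneth cells). Samples of 1 animal in different cell types are paired by origin (median r 0.0642 over 39 pairs). The members and lists were chosen with earlier results of these data known. Named genes are 8 set members, up to 8 called members of smallest p and up to 4 of largest fold change per comparison, others by role, and up to 4 called genes of smallest p per further list.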

Additional observations from a re-analysis of the deposited data

Results flagged for a closer look

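The summed level and 8 genes were each examined in 12 groups of 1 sex, age and cell type. In 7 of these checks (6.48%), 1 sample stood far from the others of its group, where chance alone gives about 1 in 20. The summed level of the 45 genes was 4424 CPM in young female progenitor replicate 2, above the others, and 3332 CPM in aged male progenitor replicate 1, above the others. Top2a had 92.7 CPM in aged female progenitor replicate 1 and 57.4 CPM in aged female Paneth replicate 2. Cdk1 had 79.5 CPM in aged male ISC replicate 4. Plk1 had 171 CPM in young male progenitor replicate 3. Aurkb had 105 CPM in young male Paneth replicate 5.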

How the results depend on the processing

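The count of genes called lower in aged progenitors was 7, where 55 of all genes were called higher and 31 lower. It was 11 by DESeq2, which adds Incenp, Ncapd2, Ncapg and Prc1 and called 142 of all genes in either direction. It was 1 in the contrast within males and 0 in that within females. Without animals of 26 and 27 months it was 2, where 34 of all genes were called in either direction. Leaving out 1 sample at a time gave 4 to 11, and the calls over all genes in those fits are not given here. Other scalings, limma-voom, no filter and the replicate block on title numbers gave 6 to 10. Over all genes these gave from 79 calls in either direction (limma-voom) to 115 (no filter). Paneth cells against progenitors in aged mice (14 genes) gave 12 to 17 on leaving out 1 sample. This comparison gave 8 with the first technical library only, 44 with no scaling, 9 without animals of 26 and 27 months and 10 with the animal block. Over all genes these 4 settings gave 2102, 9745, 2194 and 1675 calls in either direction, against 1667 higher and 1340 lower in the main fit. The same comparison in young mice (22 genes) gave 45 with no scaling, beside 10444 of all genes, and 19 to 26 on leaving out 1 sample. There 0 to 1 were called higher, the 1 being without young female Paneth replicate 3. Progenitors against ISCs in young mice (20 genes) gave 9 with the animal as replicate block, beside 1617 of all genes in either direction, and 14 to 22 on leaving out 1 sample. Leaving out 1 sample gave 34 to 37 for progenitors against ISCs in aged mice, and 39 to 42 in aged and 39 to 41 in young mice for Paneth cells against ISCs. Foxm1 changed sign in Paneth cells against progenitors in aged mice with no scaling (-1.33, edgeR adjusted p = 6.76e-05), where the median of all genes was -1.45, and in progenitors against ISCs in young mice with the animal block (0.13, edgeR adjusted p = 0.871). With no scaling the sign follows the shift of all genes. The other causes were not tested. Age in ISCs and in Paneth cells gave 0 calls under every alternative run. Knl1 had a median of 0 CPM in young Paneth samples, so its fold changes there rest on few counts.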
